A study of Mus musculus with 8 samples.

Results

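Desmosomes are the junctions that tie the keratin filaments of neighbouring keratinocytes together. Their adhesive part is built from the desmosomal cadherins, which are the desmogleins (Dsg genes) and the desmocollins (Dsc genes). Inside the cell the cadherin tails bind plakoglobin (Jup) and the plakophilins (Pkp genes), and desmoplakin (Dsp) links these to keratin. In epidermis the isoforms are layered: Dsg2, Dsg3, Dsc2 and Dsc3 are known mainly from basal and lower layers, Dsg1 and Dsc1 from the upper layers, and Dsg4 from the hair follicle. The 10 genes described here are 5 desmogleins (Dsg1a, Dsg1b, Dsg2, Dsg3 and Dsg4), 3 desmocollins (Dsc1, Dsc2 and Dsc3) and 2 plakophilins (Pkp1 and Pkp3), chosen by symbol from 21882 gene symbols. All 10 were listed in each of 3 deposited tables.

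The tables compare C57BL/6 mouse embryos that differ in Cyp26b1, a cytochrome P450 gene whose product breaks down retinoic acid. At E16.5, 2 libraries of whole skin labelled Cyp26b1-/- were set against 2 of wild-type skin. At E18.5, dermis and epidermis were taken separately, with 1 library labelled En1cre;Cyp26b1f/- and 1 Cyp26b1f/+ control library for each tissue. The series' own design note speaks of duplicates, whereas each column of the E18.5 tables names 1 library, and values are read here as single libraries. The En1cre allele makes Cre under control of Engrailed 1, which is active in precursors of the trunk dermis among other cells, and the labels give no Cre allele for the controls. The mutant also carries 1 functional Cyp26b1 allele fewer than the control outside those cells, and the 2 differences cannot be told apart. The 4 libraries of E18.5 carry 4 different numbers in their titles, so the dermis and epidermis of a genotype are not labelled as coming from the same embryo. Values are FPKM, sequenced fragments divided by transcript length and library size, so levels of different genes can be compared per length. Each E16.5 column holds 1 pooled value for its 2 libraries, so the spread between libraries is unknown, and the labels do not say whether the libraries came from separate animals. Read depth is also unknown. The 3 tables were normalised separately, so a level set across tables is a description.

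Some facts of the whole tables bear on these genes. The summed FPKM of the targeted gene, Cyp26b1, did not go down with the mutant label (34.9 against 58.2 in E16.5 skin, 54.2 against 102 in dermis and 4.97 against 13.7 in epidermis, control first), and the labels do not give the exons removed, so the genotypes rest on the labels. At E16.5 the median log2 fold of the deposited table was 0.48 over tested transcripts, so folds are given minus the median. The dermis libraries also held keratinocyte RNA: Krt5, a keratin of basal keratinocytes and the follicle's outer sheath, stood at 6265 FPKM in control dermis and 2634 FPKM in control epidermis, and the inner root sheath keratin Krt71 at 504 and 45.3 FPKM. Krt1 and Krt10, which define suprabasal epidermis, had failed estimates in E16.5 skin and in E18.5 epidermis and are not used there. The defining dermal collagen Col1a1 stood at 8297 FPKM in control dermis and 149 FPKM in control epidermis, and its estimate failed in mutant dermis.

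**Figure D1:**
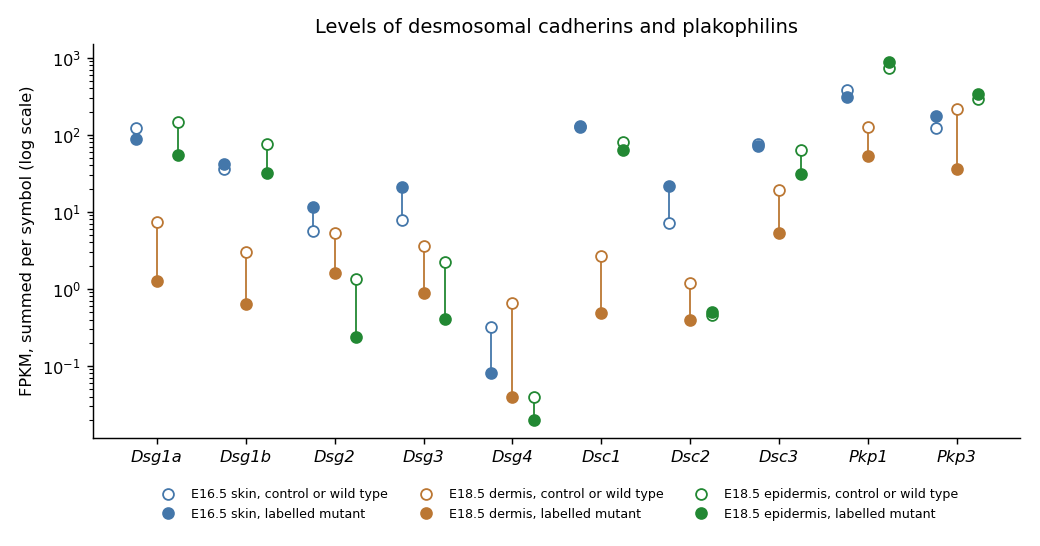
FPKM of the 10 genes (log axis) in the 6 columns of the 3 tables. Open circles are wild-type or control groups, filled circles the labelled mutants, and lines join the values of 1 comparison. In dermis (orange) every filled circle lies below its open circle. At E16.5 (blue) Dsg2, Dsg3, Dsc2, Dsg1b, Dsc1 and Pkp3 have the filled circle above, on FPKM that are not centred.

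In control tissue the members spanned several orders of magnitude. In control epidermis Pkp1 was highest at 735 FPKM, followed by Pkp3 at 287, Dsg1a at 145, Dsc1 at 79.9, Dsg1b at 74.7 and Dsc3 at 63.5 FPKM. Dsg3 (2.24 FPKM), Dsg2 (1.35 FPKM), Dsc2 (0.46 FPKM) and Dsg4 (0.04 FPKM) were far below these. With 1 library there is no spread by which neighbours in this order, such as Dsc1 and Dsg1b, could be told apart. Wild-type E16.5 skin, which is epidermis and dermis together, put Dsc1 (126 FPKM) and Dsg1a (123 FPKM) beside each other and Dsc3 (75.9 FPKM) above Dsg1b (35.8 FPKM). Control dermis had another make-up: Pkp3 was the highest member at 213 FPKM, ahead of Pkp1 at 125 FPKM, and Dsc3 led the cadherins at 19.3 FPKM.

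The make-up of each family separated the tissues. Of the summed desmoglein FPKM, Dsg2 and Dsg3 together took 1.61% in control epidermis, 7.84% in wild-type E16.5 skin and 44.7% in control dermis. Among the desmocollins, Dsc3 took 44.1%, 36.4% and 83.3% in the same order. Dsg4, the desmoglein of the hair follicle, took 3.23% of the desmoglein FPKM in control dermis and 0.018% in control epidermis. These shares rest on 0.65 and 0.04 FPKM in single libraries, and the desmoglein sum of control dermis was only 20.1 FPKM. The isoforms known from upper epidermal layers dominated epidermis and E16.5 skin, and Dsc3, Dsg2 and Dsg3 took larger shares in the dermis library, in which follicle keratins were also higher.

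**Figure D2:**
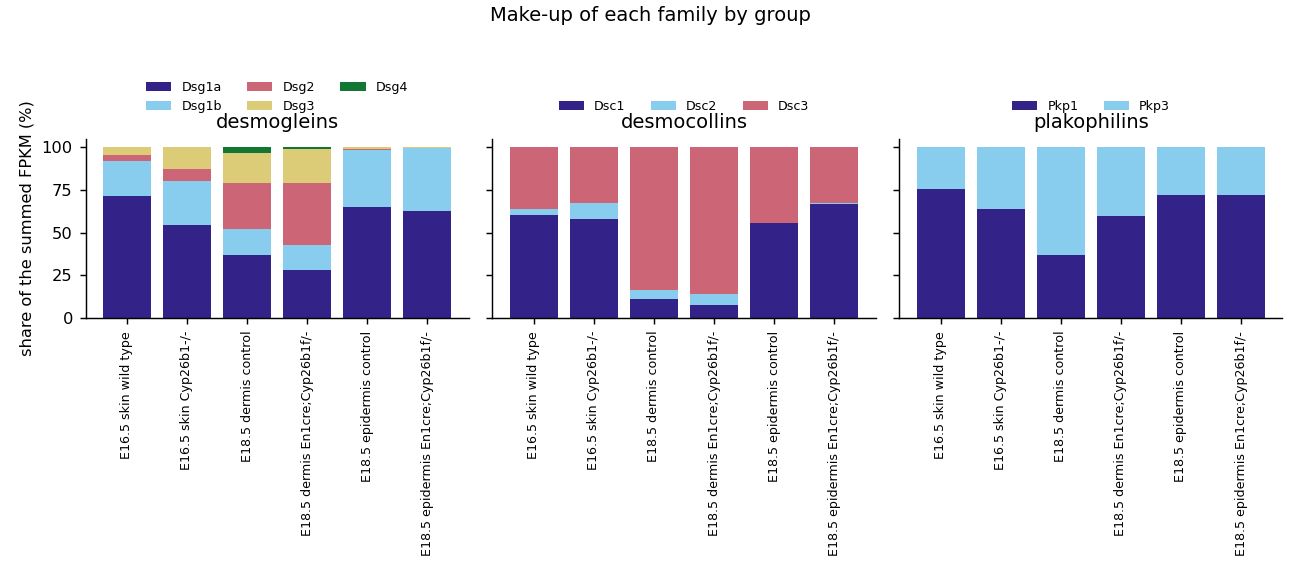
Share (%) of the summed FPKM of each family held by each gene in the 6 columns. Dsg2 and Dsg3 held 7.84% of the desmoglein FPKM in wild-type and 20.03% in Cyp26b1-/- E16.5 skin, and Dsc3 held 83.3% and 85.9% of the desmocollin FPKM in the control and mutant dermis.

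In E16.5 skin labelled Cyp26b1-/-, Dsg2, Dsg3 and Dsc2 rose relative to the median transcript, while Dsg1a, Dsg4, Dsc1, Dsc3 and Pkp1 fell and Dsg1b and Pkp3 were not called. The call is the deposited Cuffdiff statistic recomputed after subtracting the median log2 fold, at a Benjamini-Hochberg adjusted p below 0.05 over all tested transcripts. In this comparison 3 of 10 members rose and 5 fell, where 8.27% of all 16303 tested genes rose and 10.1% fell, 18.3% in either direction. The authors' own q values, which are not centred, called 4 members higher (Dsg2, Dsg3, Dsc2 and Pkp3) and 2 lower (Dsg1a and Dsg4), where 54.6% of genes were called higher and 3.46% lower, 58.1% in all. The rises of Dsg2, Dsg3 and Dsc2 and the falls of Dsg1a and Dsg4 therefore had the same direction with and without centring. The falls of Dsc1, Dsc3 and Pkp1 were called only relative to the median: in the authors' deposited table their q values were 0.863, 0.688 and 0.161.

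Among the desmogleins, Dsg3, the antigen of pemphigus vulgaris, went from 7.88 FPKM in wild-type to 21.0 FPKM in Cyp26b1-/- skin. Its log2 fold in the authors' deposited table minus the median was 0.94 (SE 0.15 implied by the Cuffdiff statistic, adjusted p = 2.4e-08). Dsg2, the desmoglein found in all desmosome-bearing tissues, went from 5.62 to 11.7 FPKM, a log2 fold minus the median of 0.58 (SE 0.15, adjusted p = 0.0018 from the authors' deposited statistic). Both were minor desmogleins of wild-type skin, and both were higher in the mutant pool. Dsg1a, one of the mouse copies of the desmoglein 1 gene of the upper layers, went from 123 to 88.7 FPKM (log2 fold minus the median -0.94, SE 0.16, adjusted p = 2.1e-07 from the authors' deposited statistic). Its neighbour copy Dsg1b stood at 35.8 and 41.7 FPKM without a call (log2 fold minus the median -0.25, SE 0.14, adjusted p = 0.24 from the authors' deposited statistic). Dsg4 went from 0.32 to 0.08 FPKM (log2 fold minus the median -2.49, SE 0.58, adjusted p = 0.00029 from the authors' deposited statistic). This was the most negative log2 fold of the 10 members, at a level under 1 FPKM in both groups.

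The share of Dsg2 and Dsg3 in the desmoglein FPKM accordingly went from 7.84% to 20.03%, and that of Dsg1a from 71.2% to 54.3%. Dsg1b relative to Dsg1a went from 29.2 to 47.1 per 100. The mouse desmoglein 1 copies are alike in sequence, and reads could be split between them: 31.6% of the 50-base stretches of the longest Dsg1a transcript occur in Dsg1b, and 45.5% of those of Dsg1b occur in Dsg1a. The values of single copies are therefore uncertain. Summed over Dsg1a and Dsg1b, the level went from 158 to 130 FPKM. The third copy, Dsg1c, was at 12.5 FPKM in wild-type and 13.2 FPKM in Cyp26b1-/- skin.

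Among the desmocollins, Dsc2, a broadly expressed isoform, went from 7.07 to 21.7 FPKM. Its log2 fold in the authors' deposited table minus the median was 1.14 (SE 0.15, adjusted p = 4.3e-13 from the authors' deposited statistic), the highest of the members. Dsc1, of the upper layers, stood at 126 and 129 FPKM (log2 fold minus the median -0.44, SE 0.16, adjusted p = 0.036 from the authors' deposited statistic). Dsc3, of the basal layer, stood at 75.9 and 72.0 FPKM (log2 fold minus the median -0.55, SE 0.15, adjusted p = 0.0027 from the authors' deposited statistic). Dsc1 and Dsc3 thus kept almost the same FPKM while the median transcript was higher, and Dsc2 went from 3.39% to 9.75% of the desmocollin FPKM.

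The plakophilins parted from each other. Pkp1, the plakophilin of suprabasal epidermis whose loss causes ectodermal dysplasia with skin fragility, went from 383 to 305 FPKM (log2 fold minus the median -0.80, SE 0.20, adjusted p = 0.0011 from the authors' deposited statistic). Pkp3, which binds a wider set of desmosomal proteins, has 2 listed transcripts, NM_019762 and NM_001162924. The first went from 107 to 156 FPKM and the second from 15.8 to 18.5 FPKM, and neither was called (log2 folds minus the median 0.07 and -0.25, adjusted p = 0.81 and 0.33 from the authors' deposited statistic). Pkp1 made up 75.8% of the plakophilin FPKM of wild-type and 63.6% of that of Cyp26b1-/- skin.

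**Figure D3:**
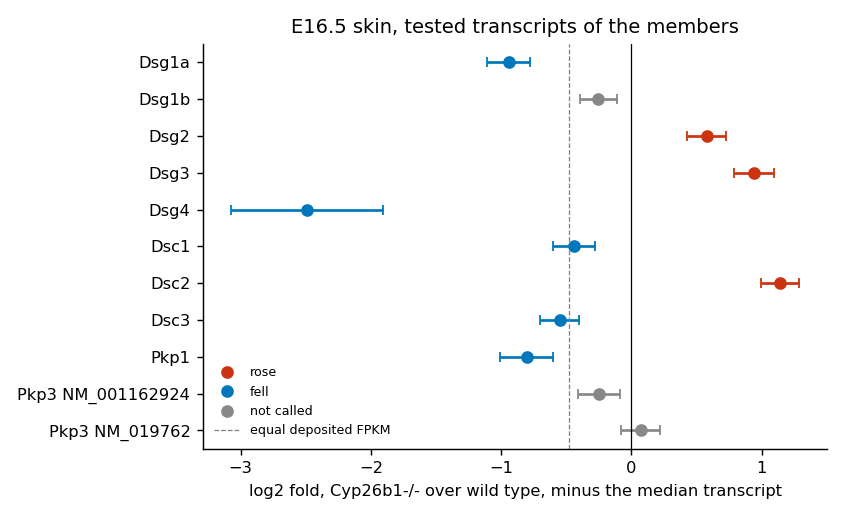
Log2 fold of Cyp26b1-/- over wild type minus the median transcript (x axis) for the 11 tested transcripts of the 10 genes at E16.5, with the SE implied by the Cuffdiff statistic as bars. Dsc2, Dsg3 and Dsg2 lie right of 0, Dsg4 farthest left at -2.49, and the dashed line marks equal deposited FPKM in both groups.

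Other desmosome genes at E16.5 rose or were not called. Of 8 genes for the plaque and for other desmosomal proteins, 3 rose and 0 fell of 8 tested, with a median log2 fold relative to the median gene of -0.24 on the log2(FPKM + 1) scale. Those that rose were Evpl (142 to 387 FPKM) and Ppl (275 to 661 FPKM), which encode envoplakin and periplakin, proteins that bridge desmosomes and the cornified envelope, and Pkp4 (25.4 to 42.7 FPKM). Jup stood at 431 and 468 FPKM, Dsp at 347 and 372 FPKM and Perp, a tetraspan protein of desmosomes, at 1278 and 1465 FPKM, none of them called. Of 9 genes for corneodesmosomes and their shedding, 0 rose and 4 fell of 9 tested (Cdsn, Klk5, Klk7 and Spink5), Cdsn, the corneodesmosome's own adhesive protein, from 122 to 20.2 FPKM. Of 9 adherens junction genes, 2 rose (Cdh1 from 102 to 198 FPKM, and Ctnnd1) and 1 fell (Cdh3, P-cadherin, from 27.0 to 30.4 FPKM, a fall relative to the median). Of 6 tight and gap junction genes 4 rose and 0 fell. The same counts over all tested genes are the 8.27% and 10.1% given above.

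Markers of other cells moved in the same E16.5 libraries. Of 7 lens genes 6 rose, and their summed FPKM went from 64.0 to 1838. Of 6 genes of simple epithelium and periderm 4 rose and 1 fell, their sum going from 541 to 1049 FPKM. Of 12 follicle sheath and shaft genes 0 rose and 11 fell, with a sum from 157 to 21.4 FPKM, and of 8 basal keratinocyte genes tested 0 rose and 2 fell, with a sum from 2943 to 2868 FPKM. Of 5 erythroid markers 2 rose and 0 fell, with a sum from 6478 to 11805 FPKM. Most of that sum was Hba-a1 (6417 and 11652 FPKM), which was not called. Those that rose were Hbb-b1 (32.6 to 96.1 FPKM) and Alas2 (27.3 to 54.8 FPKM). No gene of these 5 lists was at 0 in either group. The part of these cells in the values of Dsg2, Dsg3, Dsc2 and Dsg4 was not tested, and in bulk skin fewer cells of a type and less RNA per cell cannot be told apart. When the median of the basal keratinocyte genes was subtracted instead, 4 members were higher and 2 lower.

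In E18.5 dermis labelled En1cre;Cyp26b1f/-, each of the 10 members had a lower FPKM than in control dermis. These are single libraries, so no test was made and the size of a difference is given as log2((mutant FPKM + 1)/(control FPKM + 1)) minus the median gene, which understates the change of low genes. Pkp3 went from 213 to 35.4 FPKM (-2.68), Dsg1a from 7.48 to 1.25 FPKM (-2.04), Dsc3 from 19.3 to 5.28 FPKM (-1.81), Dsg2 from 5.37 to 1.60 FPKM (-1.42) and Pkp1 from 125 to 52.6 FPKM (-1.35). In these 5 genes both libraries were above 1 FPKM. Dsg1b went from 3.01 to 0.63 FPKM, Dsg3 from 3.62 to 0.89 FPKM, Dsc1 from 2.65 to 0.48 FPKM and Dsc2 from 1.20 to 0.39 FPKM. These 4 genes passed the filter of 1 FPKM through the control alone and so had to differ. Dsg4 (0.65 and 0.04 FPKM) was under the filter.

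Of the 9 members that passed, 8 were lower by at least 2-fold and 0 higher, where 13.9% of 13398 genes were lower by that much and 14% higher, 27.8% in all. Since 3 of those 8 (Dsg1b, Dsg3 and Dsc1) passed through the control alone, the count is a description and is not read against that share. Over all 10 members the median log2 fold was -1.42. The authors' deposited table marked both transcripts of Pkp3 and that of Dsg1a as significant. Cuffdiff q was 0.049 for the main Pkp3 transcript, NM_019762, and 0.019 for Dsg1a. These marks compare 1 library with 1, and the share of all genes marked in this way was not counted, so they are a description. Pkp3 stood apart from Pkp1: it had been the more abundant plakophilin in control dermis (63.0% of their sum) and was the less abundant in the mutant (40.2%). Within Pkp3, NM_001162924 went from 76.6 to 7.13 FPKM and NM_019762 from 137 to 28.3 FPKM, so the share of NM_001162924 went from 35.9% to 20.1%. Among the cadherins, Dsg2 and Dsg3 together went from 44.7% to 56.5% of the desmoglein FPKM and Dsg1a from 37.2% to 28.3%, while Dsc3 stood at 83.3% and 85.9% of the desmocollin FPKM. The desmoglein sum was only 20.1 FPKM in control and 4.41 FPKM in mutant dermis, and the desmocollin sum 23.1 and 6.15 FPKM. These shares therefore rest on values near the filter in single libraries.

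The desmosomal genes were lower in a dermis library in which keratinocyte and follicle genes were lower as well. The summed FPKM of 7 epidermal markers went from 15587 to 4820, that of 9 basal keratinocyte genes from 12497 to 3834 and that of 12 follicle sheath and shaft genes from 1981 to 95.1, with no gene of these lists at 0. The epidermal and basal lists share Krt5, Krt14, Krt15 and Trp63, so their sums are not separate observations. All 12 follicle genes, 8 of the 9 basal genes and 5 of the 7 epidermal markers were lower by at least 2-fold. Of the follicle genes, Krt32 (11.8 to 0.74 FPKM) passed the filter through the control alone. The epidermal marker Krtdap stood at 98.7 and 107 FPKM, and Trp63 at 41.9 and 34.0 FPKM. Krt71 went from 504 to 8.37 FPKM. Measured against the basal keratinocyte list, the log2 folds of Dsg1b, Dsg2, Dsg3, Dsc1 and Pkp1 lay between 0.09 and 0.16, Dsc2 was at 0.73, Dsc3 at -0.30 and Dsg1a at -0.53. Pkp3 was at -1.17, and it was the 1 member that stayed past 2-fold. Other desmosome genes were lower too, with 5 of 6 that passed lower by at least 2-fold and a median of -1.75. Jup went from 422 to 126 FPKM, Dsp from 90.8 to 31.3 FPKM, Ppl from 92.8 to 18.3 FPKM and Evpl from 92.6 to 17.8 FPKM, whereas Pkp4 went from 15.4 to 18.4 FPKM.

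Markers of other cells moved in both directions in the same libraries. The summed FPKM of 4 endothelial markers went from 78.0 to 216 and that of 5 skeletal muscle markers from 1017 to 2977, while the 4 fibroblast markers with usable estimates went from 488 to 749, with Dcn at 53.8 and 358 FPKM and Twist2 at 387 and 312 FPKM in control and mutant. The 4 melanocyte markers went from 184.55 to 120.1 FPKM in sum, but differed in direction, with 1 lower and 1 higher by at least 2-fold. Dct went from 120 to 51.7 FPKM and Mlana from 5.94 to 18.1 FPKM. The 5 erythroid markers went from 11681 to 6917 FPKM, of which Hba-a1 held 11673 and 6886 FPKM, while Alas2 went from 7.84 to 29.6 FPKM. Of the erythroid markers 2 were at 0 in control and 1 in mutant dermis. Adherens junction genes, which many cell types use, had a median log2 fold of 0.09, with 3 of 9 lower and 1 higher by at least 2-fold. The E-cadherin gene Cdh1 went from 53.4 to 36.6 FPKM and P-cadherin, Cdh3, from 95.3 to 46.5 FPKM. How far the amount of epithelium in each dermis library sets the desmosomal values was not tested. Measuring against the basal list changes the centre, and by it less epithelium and less RNA per cell cannot be told apart.

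In E18.5 epidermis labelled En1cre;Cyp26b1f/-, most desmosomal cadherins were lower than in control epidermis and the plakophilins were not. Dsg1a went from 145 to 55.0 FPKM (-1.20), Dsg1b from 74.7 to 32.3 FPKM (-1.01) and Dsc3 from 63.5 to 30.7 FPKM (-0.85), on the same log2 scale relative to the median gene. Dsg3 went from 2.24 to 0.41 FPKM (-1.02) and Dsg2 from 1.35 to 0.24 FPKM (-0.74), both passing the filter through the control alone. Dsc1 went from 79.9 to 63.0 FPKM (-0.16). Pkp1 went from 735 to 882 FPKM (0.44) and Pkp3 from 287 to 340 FPKM (0.42). Dsc2 (0.46 and 0.50 FPKM) and Dsg4 (0.04 and 0.02 FPKM) were under 1 FPKM in both libraries.

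Of the 8 members that passed, 3 (Dsg1a, Dsg1b and Dsg3) were lower by at least 2-fold and 0 higher, where 4.86% of 11362 genes were lower by that much and 3.49% higher, 8.34% in all. As Dsg3 passed through the control alone, the count is a description and is not read against that share. Dsg1b lay just past the threshold and Dsc3 short of it. The FPKM of Dsg3 and Dsg2 were 5.46-fold and 5.63-fold lower, and adding 0.1 instead of 1 put them at -1.99 and -1.89 on the log2 scale. The authors' deposited table marked Dsg2 and Dsg3 as significant, with Cuffdiff q values of 0.049 and 0.04. Both marks compare 1 library with 1, and both genes were under 1 FPKM in the mutant. The share of all genes marked in this way was not counted, so the marks are a description. The summed FPKM of the 8 cadherins went from 367 to 182, while that of both plakophilins went from 1022 to 1222. For 100 FPKM of plakophilin there were 35.9 FPKM of cadherin in control and 14.9 in mutant epidermis. In dermis the same figure was 12.8 and 11.99, and at E16.5 it was 75.4 and 80.4. Dsc1 went from 55.5% to 66.9% of the desmocollin FPKM as Dsc3 went from 44.1% to 32.6%.

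**Figure D4:**
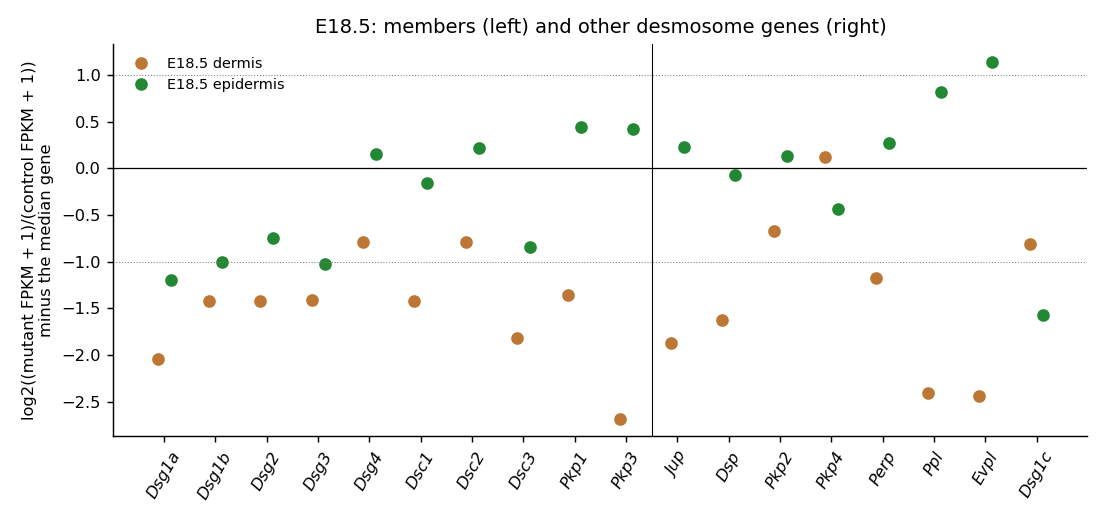
Log2((mutant FPKM + 1)/(control FPKM + 1)) minus the median gene at E18.5 for the 10 members and 8 other desmosome genes, in dermis (orange) and epidermis (green), 1 library per group. Dotted lines mark 2-fold; dermis points lie below 0 for all members, and in epidermis Dsg1a, Dsg1b and Dsg3 lie past -1 while Pkp1 and Pkp3 lie above 0.

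The other desmosome genes differed in direction in epidermis. Jup stood at 1502 and 1552 FPKM, Perp at 1498 and 1603 FPKM and Dsp at 589 and 495 FPKM in control and mutant, while Ppl went from 296 to 462 FPKM and Evpl from 343 to 669 FPKM. Pkp4 went from 6.00 to 3.58 FPKM (-0.43), and Dsp was at -0.07. Dsg1c, the third desmoglein 1 copy, went from 20.1 to 5.26 FPKM (-1.57), so all 3 copies were lower by at least 2-fold, Dsg1b only just. The copies are alike in sequence and reads could be split between them, so they are not separate observations. Against genes of the same GC range, Dsg1a and Dsg1b were at -0.89 and -0.92 and Dsg1c at -1.42. The median over the 7 desmosome genes outside the members that passed was 0.23. P-cadherin, Cdh3, another cadherin of the basal layer, went from 17.1 to 6.37 FPKM, and E-cadherin, Cdh1, from 157 to 194 FPKM. Cdsn went from 1377 to 1964 FPKM.

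Basal and dermal genes were also lower in the mutant epidermis library. The summed FPKM of 9 basal keratinocyte genes went from 5756 to 1877, and Krt5 went from 2634 to 704 FPKM. Of the 9 genes, 6 were lower by at least 2-fold, where 4.86% of all genes were. Itga6 (3.78 to 0.37 FPKM), among those 6, and Dst (2.03 to 0.37 FPKM) passed the filter through the control alone, so the count is a description. The sum of 12 follicle genes went from 177 to 26.7 FPKM and that of 7 fibroblast markers from 326 to 61.9 FPKM, with none of these genes at 0. Measured against the basal list, Dsg1a was at -0.03, Dsg3 at 0.15, Dsg1b at 0.16 and Dsc3 at 0.32, whereas Dsc1, Pkp3 and Pkp1 were at 1.01, 1.59 and 1.61. Dsg2 was at 0.43 on this scale. Genes known from the upper layers differed in direction. Dsg1a (-1.20) and Dsg1b (-1.01) were lower relative to the median gene, as the basal list was, and Dsc1 was at -0.16. Of the spinous and granular genes 6 had failed estimates, and the 3 that passed had a median of 0.98 relative to the median gene. Ivl went from 334 to 709 FPKM and Casp14 from 411 to 718 FPKM, while Krtdap went from 6811 to 5419 FPKM. Pkp1 stood at 27.9 FPKM per 100 FPKM of Krt5 in control and 125 in mutant epidermis. The part of these other genes in the cadherin values was not tested.

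The cadherin genes lie side by side. Dsc3, Dsc2 and Dsc1 on the minus strand are followed by Dsg1c, Dsg1a, Dsg1b, Dsg4, Dsg3 and Dsg2, in a stretch of 644 kb on chromosome 18 from 20119431 to 20763027 (mm9), which holds 9 listed desmosomal cadherin genes, 8 of them members. Pkp1 is found elsewhere, on chromosome 1 between 137767972 and 137815601 (minus strand), and so is Pkp3, on chromosome 7 between 148264128 and 148276409 (plus strand). Folds did not follow one course along the cluster. At E16.5 the genes that rose were Dsc2 among the desmocollins and Dsg3 and Dsg2 at the far end, and Dsc3 and Dsc1 on each side of Dsc2 fell. In epidermis Dsg1c and Dsg1a had the lowest folds on the log2(FPKM + 1) scale, followed by Dsg3 near the far end (-1.02) and Dsg1b (-1.01), an order that depends on the pseudocount, with Dsg3 at -1.99 and Dsg2 at -1.89 against -1.19 for Dsg1a when 0.1 was added instead of 1.

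**Figure D5:**
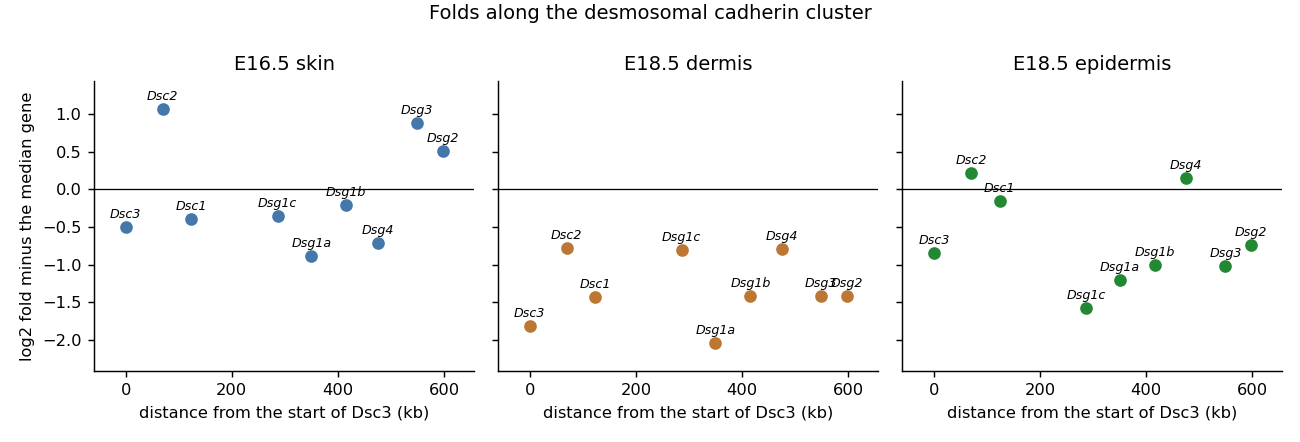
Log2 fold relative to the median gene on the log2(FPKM + 1) scale against distance (kb) from the start of Dsc3 for the 9 listed cadherin genes of the cluster, in each comparison. At E16.5 Dsc2, Dsg3 and Dsg2 lie above 0, in dermis all genes lie below 0, and in epidermis Dsg1c is lowest at -1.57.

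The cadherins share a base composition that the plakophilins lack. The longest annotated transcripts of the 8 cadherins hold 41.9% to 47.5% GC, against 53.8% for Pkp1, 60.3% for Pkp3 and a median of 50.7% over genes of at least 1 FPKM at E16.5. Across genes, which are not independent replicates, the log2 fold went with GC content, where Spearman rho came to -0.33 for E16.5 skin, -0.27 for dermis and 0.22 for epidermis. Measured against genes of the same GC range, the epidermis folds were -0.89 for Dsg1a, -0.92 for Dsg1b, -0.93 for Dsg3 and -0.54 for Dsc3, so that 0 members were past 2-fold, and those of Pkp1 and Pkp3 were 0.41 and 0.31. In dermis the fold of Pkp3 went from -2.68 to -1.89 by this measure, close to that of Dsc3 (-1.79) and Dsg2 (-1.79), and 8 members were still lower by at least 2-fold. At E16.5 the calls were 3 higher and 5 lower with and without it.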

How the data were processed

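RNA was sequenced from skin, dermis and epidermis of 8 libraries. The submitters' processing notes name mouse build mm9 and, without saying what each did, Cuffdiff 1.3.0, Cufflinks, TopHat 1.3.2 and Bowtie 0.12.7.0. Use of strand is not given in the sources used here. For each transcript the authors deposited FPKM of control and mutant, a log2 fold, a test statistic and a p-value and q-value. The log2 fold and the statistic are deposited as a score, since a fold against 0 is held as a stand-in for infinity. FPKM were summed per symbol and genes with a failed row left out; no member had one. E16.5 calls used the SE implied by fold and statistic, the median fold (0.48) subtracted, a two-sided normal p and Benjamini-Hochberg adjustment over 19608 transcripts. A gene was called when at least 1 transcript was called and none the other way. Such an SE comes from the model of Cuffdiff and holds no measured spread between animals. At E18.5, folds used a pseudocount of 1 and genes of at least 1 FPKM, with no test. Tests on counts were not possible with FPKM. The call was run on simulated data whose noise was drawn from the same implied SE. Such a run checks the arithmetic of the centring and cannot show whether those SE hold. GC content, length, strand and shared 50-base stretches came from GENCODE transcripts of the same build (numpy 2.4.6, pandas 2.3.3, scipy 1.17.1). The members, lists, the centred test and the naming rule (all members; called genes of a list, otherwise up to 4 with the largest fold; 5 genes of most like profile) were chosen with earlier results of these data known. Alternatives varied the centre, pseudocount, filter and transcript; those using GC and length were chosen after seeing the data.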

Additional observations from a re-analysis of the deposited data

Results flagged for a closer look

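Both plakophilins had opposite signs relative to the median gene in the 2 tissues of E18.5, lower in mutant dermis and higher in mutant epidermis. The log2 fold of Pkp3 was -2.68 in dermis and 0.42 in epidermis, a difference of 3.1. That of Pkp1 was -1.35 and 0.44, a difference of 1.8. With 1 library per group and tissue the difference was not tested. No other member that passed 1 FPKM in both tissues had opposite signs. The pattern was not particular to the plakophilins. Evpl (-2.44 in dermis and 1.14 in epidermis), Ppl (-2.40 and 0.82), Jup (-1.86 and 0.23) and Perp (-1.17 and 0.28) had it too. Dsp was lower in both tissues (-1.63 and -0.07), and Pkp4 had the reverse signs (0.12 and -0.43). Against the basal keratinocyte list Pkp1 was positive in both tissues (0.16 and 1.61), and Pkp3 was at -1.17 and 1.59.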

How the results depend on the processing

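Subtracting another centre was the choice that moved most. At E16.5 the lower calls went from 5 to 2 with the authors' own q and to 2 with the basal keratinocyte list as centre, while the higher calls were 3 or 4 under the 6 alternatives. The fold of Dsc1 was 0.035 without centring, and the members' median, -0.21 over those that passed, was 0.22 without centring and 0.083 against the basal list. In dermis, against the basal list, the folds of Dsg1b, Dsg2, Dsg3, Dsc1 and Pkp1 were 0.090, 0.096, 0.099, 0.086 and 0.16, and that of Dsc2 was 0.73. There the members' median was 0.090 (-1.42 otherwise), and 1 member was past 2-fold lower. In epidermis, against the basal list, Dsg1b and Dsg3 were at 0.16 and 0.15, the median was 0.37 (-0.80 otherwise), 0 members were lower and 3 higher by at least 2-fold. There the GC alternative also left 0 lower, and the median over all 10 members without a filter was -0.45. A pseudocount of 0.1 moved Dsg2 from -0.74 to -1.89 and Dsg3 from -1.02 to -1.99 in epidermis and Dsc2 from -0.79 to -1.55 in dermis, and gave 4 members lower by at least 2-fold in epidermis and 9 in dermis. The 10 FPKM centre and no centring gave 4 and 8. The pseudocount, the 10 FPKM centre, the highest transcript and the length alternative reversed no member past its threshold. No paired analysis was possible because the E16.5 columns pool the libraries and E18.5 has 1 library per group, so leaving out a replicate could not be run either.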

Other observations

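Over the 6 columns of the 3 tables, the genes with the profile closest to the mean of the members were Rab5a, Hsdl2, Uchl3, Rps6ka6 and Higd1a, with root mean square differences of 0.17, 0.18, 0.20, 0.22 and 0.23 on the centred log2(FPKM + 1) scale among 12064 genes. Rab5a, a small GTPase of early endosomes, stood at 56.9 and 62.8 FPKM in E16.5 skin, 11.6 and 5.63 FPKM in dermis and 46.8 and 28.6 FPKM in epidermis, control first. Among the members Dsc3 was closest to their mean (0.21) and Dsc1 farthest (1.49). These columns share libraries and normalisation across genes, so the likeness is a description.

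Transcription factors of the epidermis split between the tissues. In dermis 5 of 8 were lower by at least 2-fold, with a median log2 fold of -1.38. In epidermis the median was 0.54 and 1 of 8, Trp63, the master regulator of stratified epithelia, was lower by at least 2-fold (39.7 to 15.6 FPKM). Grhl1 (104 to 158 FPKM) and Grhl3 (80.1 to 122 FPKM), grainyhead factors of epidermal junctions and barrier, were higher there at 0.77 each. Zfp750 and Ovol1 (0.68 each) and Klf4 (0.40) were higher as well. At E16.5, 1 rose (Zfp750) and 2 fell (Grhl1 and Klf4) of 7 tested. The summed FPKM of Grhl1 nevertheless went from 102 to 148, a fold of 0.11 relative to the median gene, and the authors' q called it higher.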
